A study of Mus musculus with 8 samples.

Results

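Glycolysis was followed here through 33 genes, from the entry of glucose into the cell to the entry of pyruvate into the mitochondrial acetyl-CoA route. The genes were chosen by symbol, as transporters, isozymes and regulators of these steps, and all 33 were found among the 24421 genes of the count tables. They were measured in R1 mouse embryonic stem cells (ESCs), a pluripotent line, in 2 states. Undiff cells were kept in growth medium with leukaemia inhibitory factor (LIF), which holds ESCs undifferentiated. Day4 embryoid bodies were aggregates of the same line, grown without LIF in low-adherence dishes for 4 days and then for another 4 days with the differentiation inducer retinoic acid (RA). The states therefore differed in LIF, RA, aggregation and days of culture together, and these cannot be told apart. One label of the Undiff libraries also names embryoid bodies, whereas the study's methods describe them as maintained ESCs. Long reads of their poly(A) RNA came from 2 Oxford Nanopore Technologies (ONT) platforms. ONT Direct RNA reads the native RNA strand from an input of 500 ng, and ONT cDNA reads PCR-amplified copies made from 50 ng. Each state had 2 replicates, grown and treated separately, on each platform, which gave 8 libraries in 4 groups.

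Glycolysis splits glucose into pyruvate in a chain of enzyme steps in the cytosol and yields ATP without oxygen. Most steps can be carried out by several isozymes, encoded by separate genes that differ between tissues. Pyruvate is either reduced to lactate, which leaves the cell through monocarboxylate transporters, or enters mitochondria, where the pyruvate dehydrogenase complex turns it into acetyl-CoA. Pluripotent cells are known for a high glycolytic rate, and many glycolytic genes are known targets of hypoxia-inducible factor, a transcription factor that recognises the letters ACGTG or GCGTG.

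The libraries held 283461 to 907489 reads on genes for ONT Direct RNA, and 948657 to 2088592 for ONT cDNA. The 33 genes together took 1.22% and 1.45% of them in the Direct RNA Undiff libraries and 1.70% and 1.67% at Day4. In cDNA the shares were 1.26% and 1.35% in Undiff against 1.96% and 1.90% at Day4, so the Day4 libraries lay above the Undiff libraries on both platforms. These are shares of all reads on genes, and are scaled otherwise than the fold changes given below. Levels are given in CPM, reads per 1e6 reads on genes of the library, and 3 reads corresponded to between 1.44 and 10.6 CPM. The 8 markers of stem cells summed to at least 10656 CPM in every Undiff library and to between 85.0 and 923 CPM at Day4. The sum of 10 neuron markers lay between 653 and 836 CPM in Undiff and between 54.2 and 95.6 CPM at Day4. Most of it came from Stmn2 and Tubb3, with means of 467 and 145 CPM in Direct RNA Undiff, which were lower at Day4 on both platforms. Rbfox3 and Dcx averaged at most 3.54 CPM in Undiff and at most 9.50 CPM at Day4, and no neuron marker was called higher. Day4 libraries held instead markers of mesenchyme (233 to 2967 CPM over 8 genes, against at most 14.4 in Undiff), of endoderm (300.4 to 1108 CPM over 9 genes, against at most 14.3) and of embryonic erythroid cells (534 to 3274 CPM over 10 genes, against at most 14.4). Most of the erythroid sum came from the embryonic globins Hba-x, Hbb-bh1 and Hbb-y, with means of 579, 391 and 491 CPM in Direct RNA Day4. Gata1 and Klf1 of that list averaged at most 8.49 CPM in every group, and their changes differed in direction between the platforms. Thy1 of the mesenchyme list had a lower mean at Day4 on both platforms. None of 10 heart and muscle markers was called between states on either platform. The adult globins Hba-a1, Hba-a2 and Hbb-bt were at 0 reads in every library. On both platforms 8 of the 8 stem cell markers were called lower, and 4 erythroid, 4 mesenchyme, 4 endoderm and 1 endothelium gene (Emcn) were called higher. Marker genes thus differed together with every difference between states given below, and their part in it was not tested. In bulk RNA, fewer cells of a type and less RNA per cell cannot be told apart.

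The letters ACGTG or GCGTG, on either strand, were looked for in the promoters of the genes in RefSeq (GRCm38.p6), from 250 bases before to 50 after the start of transcription. The letters CACGTG, which read ACGTG on both strands and are also an E-box, count as 2 overlapping matches. A total of 32 of the 33 genes had a promoter entry, and 27 of them (84.4%) held a match, against 46.7% of all 27025 genes. Over single promoters the share was 77.1% of 48, against 43.8% of all 32851 promoters. Their mean GC content was 60.1% against 53.8%, and its part in the difference was not tested. Shown here are bases upstream of the start site of the genes with an upstream match that were called between states, because their matches lie on both sides of the response. Capitals mark the matches.
Slc16a3, rose, last 30 bases before the RefSeq start, chr11:120949037-120949066, plus strand: gtgACGTGcgcgggggACGTGccgcgcgac
Pfkp, fell, chr13:6648772-6649021, minus strand: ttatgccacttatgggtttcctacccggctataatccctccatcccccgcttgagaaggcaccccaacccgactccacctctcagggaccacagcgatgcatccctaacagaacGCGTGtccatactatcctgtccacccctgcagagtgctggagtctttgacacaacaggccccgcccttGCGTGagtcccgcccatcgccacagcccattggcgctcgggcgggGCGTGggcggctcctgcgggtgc
Hk2, fell in cDNA, chr6:82774455-82774704, minus strand: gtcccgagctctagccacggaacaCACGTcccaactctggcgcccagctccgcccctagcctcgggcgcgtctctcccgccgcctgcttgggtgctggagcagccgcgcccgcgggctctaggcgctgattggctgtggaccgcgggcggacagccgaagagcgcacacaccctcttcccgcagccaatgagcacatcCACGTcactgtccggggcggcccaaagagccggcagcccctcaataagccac
Pdha1, fell in cDNA, chrX:160138431-160138680, minus strand: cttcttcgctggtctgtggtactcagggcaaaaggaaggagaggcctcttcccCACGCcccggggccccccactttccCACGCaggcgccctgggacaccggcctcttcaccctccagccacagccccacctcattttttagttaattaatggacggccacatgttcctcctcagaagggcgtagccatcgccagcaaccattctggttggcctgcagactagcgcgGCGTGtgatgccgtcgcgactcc
Pdhb, fell in Direct RNA, last 30 bases before the RefSeq start, chr14:8172993-8173022, minus strand: aaggtgtCACGCcctactattggctgcgtc
Slc16a3 held ACGTG at 27 and at 14 bases before the start site, and Hk2 held it at 226 and 52 bases before it. Pfkp and Pdha1 each held 3 matches, all GCGTG. Pdhb held GCGTG at 23 bases before the start site, and ACGTG at 248, outside the bases shown. Among the genes called between states below, 1 of the 3 that were higher at Day4 held a match upstream of the start (Slc16a3, but not Gpi1 or Tpi1), as did 4 of the 4 lower ones with an entry and 22 of the 25 not called. Start sites are those of RefSeq. GENCODE vM21 starts Slc16a3 587 bases and Pdhb 33 bases further upstream, so that the bases shown for both lie inside the gene there, those of Pdhb in its first exon. A match is a description of letters and does not show that a factor was bound.

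A gene was called when its DESeq2 adjusted p-value was at most 0.05, its log2 fold change of Day4 over Undiff at least 1 in size and its mean normalised count at least 5. Gpi1, Tpi1 and Slc16a3 were higher at Day4 on both platforms, and Slc2a3 and Pfkp were lower on both. In Direct RNA 28 of the 33 genes reached the mean count, 4 were below it and Eno1 had no read. Of these 28, 3 were called higher, where 9.54% of all 9646 genes tested were, and 3 lower, where 7.67% were. In cDNA 31 genes reached the mean count, with 3 called higher, where 8.69% of all 10271 genes were, and 4 lower, where 9.24% were. With this test the shares of called members were near those of all genes on both platforms, and they depended on the test and filter as given at the end. Of the 8720 genes tested on both, 6.19% were called higher and 5.18% lower on both. The median log2 fold change of the members was -0.04 for Direct RNA and 0.11 for cDNA, where that of all genes tested was 0.03 and 0.00. Both platforms used RNA of the same cultures, so that they repeat the measurement and not the cultures. Fits within a platform that leave out a library are given beside the calls below. They leave 1 group with 1 library, which is assumed to vary like the other group, and calls over all genes then fell from 1660 to between 393 and 797 in Direct RNA and from 1842 to between 709 and 1020 in cDNA. A call lost in such a fit therefore does not single out the library left out, and the fold change is given with it.

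**Figure D1:**
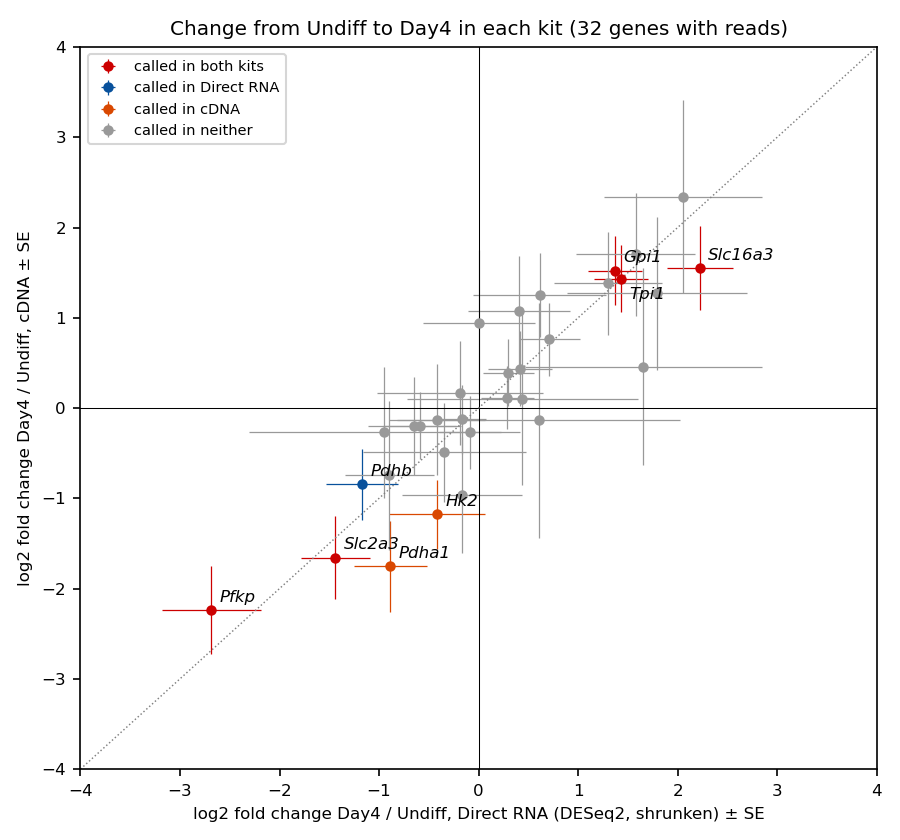
Log2 fold change of Day4 over Undiff in ONT Direct RNA (x axis) and ONT cDNA (y axis) for the 32 genes with reads, with standard errors as bars and equal change as a dotted line. Points called on both platforms, on 1 platform or on neither differ in colour: Gpi1, Tpi1 and Slc16a3 lie at the upper right, and Slc2a3 and Pfkp at the lower left.

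By CPM, both Day4 libraries lay above both Undiff libraries for 13 of the 28 genes in Direct RNA, where 37.3% of all genes did, and below them for 8, where 30.3% did. In cDNA they lay above for 16 of 31 genes, where 43.1% of all genes did, and below for 6, where 23.2% did. CPM are scaled by library size alone, whereas the fold changes are fitted with the scaling factors of DESeq2. In cDNA the median fitted change of all genes tested was 0.00, although more of them lay above than below by CPM. A rise in CPM can therefore stand beside a fitted change that is small or negative. The test of a different change on the 2 platforms called none of the members, at an adjusted p of at most 0.05, where 0.0116% of 17267 genes were called. None of the members reached an unadjusted p of 0.05 in it, where 161 of the 17267 genes did. With edgeR none of the members was called either, where 14 of the 17267 genes were.

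**Figure D2:**
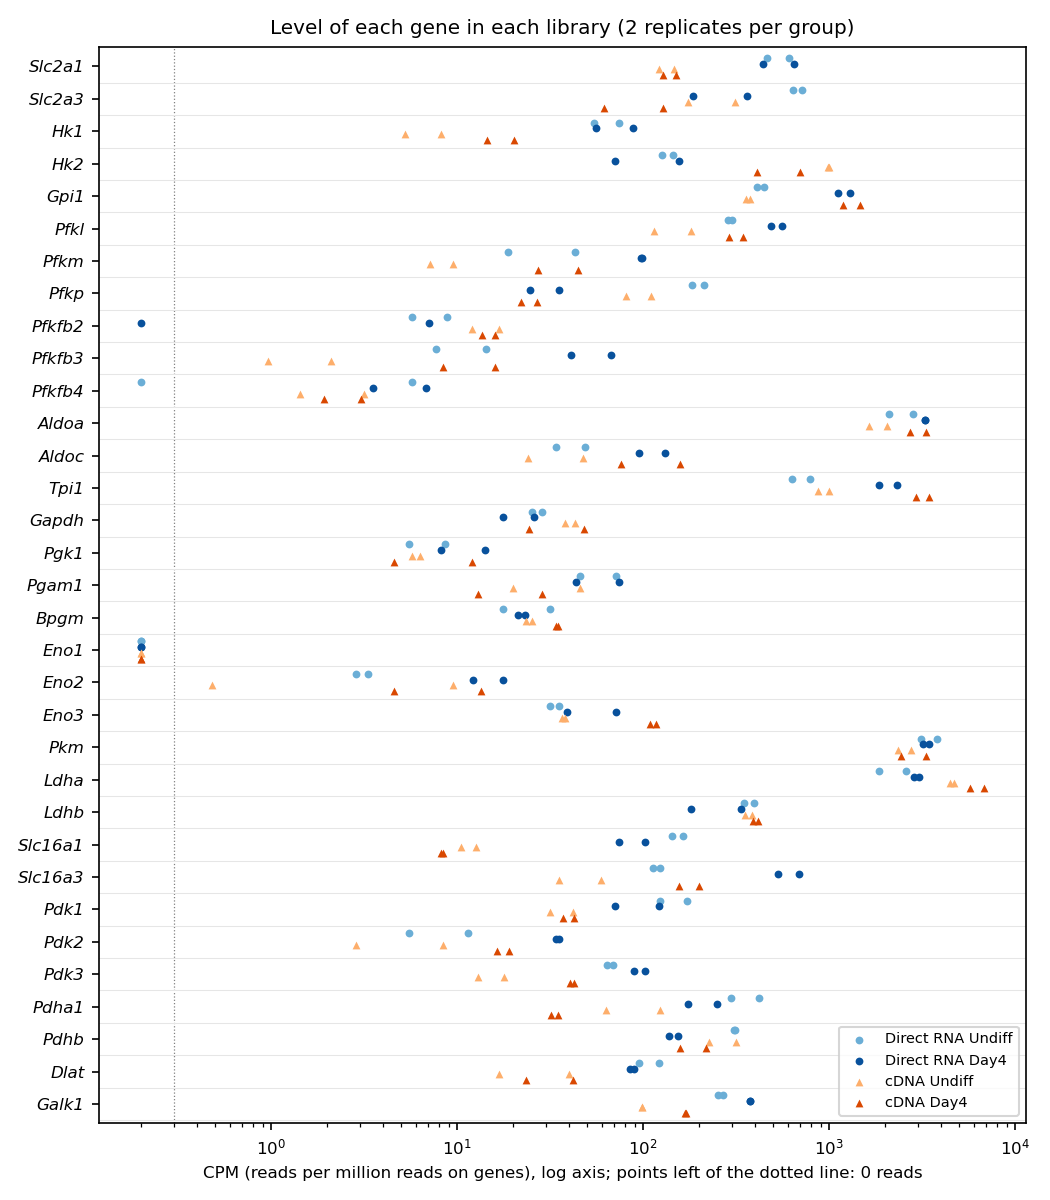
Level in CPM (log axis) of each of the 33 genes in each of the 8 libraries, with circles for ONT Direct RNA and triangles for ONT cDNA, light for Undiff and dark for Day4. Points left of the dotted line are libraries with 0 reads, as for Eno1 in all 8, and the dark points of Gpi1, Tpi1 and Slc16a3 stand to the right of the light ones on both platforms.

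Of the glucose transporters, Slc2a3 was called lower on both platforms and Slc2a1 was not called. Slc2a3 encodes GLUT3, a high-affinity glucose transporter typical of neurons and early embryos, and lies at chr6:122727809-122801640 on the minus strand (GRCm38). It stood at 640 and 717 CPM in the Direct RNA Undiff libraries and at 360 and 184 CPM at Day4. Its cDNA levels were 174 and 312 CPM in Undiff and 61.4 and 129 CPM at Day4. The states did not overlap on either platform. Its log2 fold change was -1.44 ± 0.35 (SE, adjusted p = 0.000795) in Direct RNA and -1.66 ± 0.46 (adjusted p = 0.00454) in cDNA. In Direct RNA the adjusted p was 0.285 without Undiff replicate 2 (-1.31) and 0.13 without Day4 replicate 2 (-1.02). In cDNA it was 0.317 without Undiff replicate 2 (-1.27) and also 0.317 without Day4 replicate 1 (-1.22). Slc2a1, the widespread basal transporter GLUT1, had 611 and 465 CPM in Undiff and 649 and 443 CPM at Day4 in Direct RNA, and 121 and 146 against 127 and 150 CPM in cDNA, and the states overlapped on both. Its log2 fold change of -0.09 ± 0.31 in Direct RNA and -0.27 ± 0.41 in cDNA did not pass the test, and its 95% interval without shrinkage ran from -0.70 to 0.53 and from -1.09 to 0.54. Of the reads of both transporters, Slc2a3 took 51.1% and 60.7% in the Direct RNA Undiff libraries and 35.7% and 29.4% at Day4. In cDNA the share was 58.9% and 68.1% in Undiff and 32.5% and 46.2% at Day4, so no Day4 library reached an Undiff library on either platform.

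Hexokinases add the phosphate that traps glucose in the cell. Hk2, an isozyme typical of muscle, fat and rapidly growing cells, had 1001 and 985 CPM in the cDNA Undiff libraries and 409 and 698 CPM at Day4. In cDNA it changed by -1.18 ± 0.38 (adjusted p = 0.021). That call was lost when any one of the 4 cDNA libraries was left out, with changes from -1.43 to -0.86 and adjusted p from 0.074 to 0.556, and under the filter of at least 10 reads in every library (-0.95, adjusted p = 0.0524). In Direct RNA the gene stood at 126 and 146 CPM in Undiff and at 155 and 70.5 CPM at Day4, so that 1 Day4 library lay above and 1 below both Undiff libraries. Its change there was -0.42 ± 0.48 (adjusted p = 0.784), and 0.06 without Day4 replicate 2. The difference between platforms in this change was -0.77 ± 0.56 (unadjusted p = 0.169). Hk1, the widely expressed isozyme, had 54.5 to 88.2 CPM in the Direct RNA libraries, 5.27 to 20.2 CPM in those of cDNA, and was not called between states on either platform.

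Gpi1, glucose-6-phosphate isomerase, which turns glucose 6-phosphate into fructose 6-phosphate, was among the 3 genes that rose on both platforms. The gene lies at chr7:34201330-34230336 on the minus strand. Its Direct RNA levels were 410 and 445 CPM in Undiff and 1295 and 1117 CPM at Day4. In cDNA they were 357 and 374 CPM in Undiff and 1462 and 1184 CPM at Day4. The gap between the states was far larger than that between replicates, and the log2 fold change was 1.37 ± 0.27 (adjusted p = 2.01e-05) in Direct RNA and 1.52 ± 0.38 (adjusted p = 0.00121) in cDNA. Leaving out Direct RNA Undiff replicate 1 gave 1.17 (adjusted p = 0.112). Leaving out cDNA Undiff replicate 2 or Day4 replicate 1 gave 1.45 and 1.28 (adjusted p = 0.0778 and 0.138). A processed pseudogene with 98.7% identity to part of its coding sequence is annotated, and an exon of Gm26762 overlaps it on the opposite strand.

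Phosphofructokinase commits sugar to glycolysis, and 1 of its 3 subunit genes, Pfkp, was called. Pfkp, the platelet-type subunit, lies at chr13:6579768-6648777 on the minus strand. In Direct RNA it stood at 212 and 184 CPM in Undiff and at 24.7 and 35.3 CPM at Day4. In cDNA it stood at 81.2 and 111 CPM in Undiff and at 22.0 and 27 CPM at Day4. Every Day4 library was thus below every Undiff library of its platform. This was the strongest fall among the members called, with a log2 fold change of -2.68 ± 0.49 (adjusted p = 2.92e-06) in Direct RNA and -2.24 ± 0.48 (adjusted p = 0.000113) in cDNA. The Direct RNA call held without each of the 4 libraries in turn (-2.91 to -2.39), and the cDNA call was lost only without Undiff replicate 2 (-2.05, adjusted p = 0.0684). An exon of Pitrm1 overlaps Pfkp on the opposite strand.

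The other subunits were not called. Pfkl, the liver-type subunit, had 287 and 301 CPM in Undiff and 557 and 488 CPM at Day4 in Direct RNA, and 114 and 181 against 288 and 344 CPM in cDNA. Its log2 fold change was 0.71 ± 0.31 and 0.76 ± 0.40 (adjusted p = 0.131 and 0.264). Pfkm, the muscle-type subunit, had 43.0 and 18.7 CPM against 98.8 and 97.6 CPM in Direct RNA and 9.49 and 7.18 against 27.3 and 44.8 CPM in cDNA. Its change of 1.58 ± 0.60 and 1.70 ± 0.68 missed the threshold in DESeq2 (adjusted p = 0.0700 and 0.0899) and passed it in edgeR (1.72 and 1.84, adjusted p = 0.000603 and 0.00513). DESeq2 with at least 10 reads in every library called it in Direct RNA (1.56, adjusted p = 0.0111), and its cDNA reads did not pass that filter. The family is also given by shares of its reads, not divided by transcript length and with no test. Pfkp took 39.2% (95% Wilson interval 32.5 to 46.3) and 36.5% (32.3 to 41.1) of the phosphofructokinase reads in the Direct RNA Undiff libraries, and 3.63% (1.77 to 7.30) and 5.68% (3.90 to 8.19) at Day4. In cDNA the shares were 39.7% and 37.0% in Undiff and 6.52% and 6.49% at Day4. No interval of an Undiff library met one of a Day4 library, although these intervals cover counting error only and not the spread between replicates. Pfkl took between 52.9% and 60.6% in Undiff and between 78.6% and 85.4% at Day4 over both platforms.

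The bifunctional PFKFB enzymes make and remove fructose 2,6-bisphosphate, the activator of phosphofructokinase, and were counted in few reads. Pfkfb3, the isozyme with the highest kinase activity, had 14.3 and 7.71 CPM in Undiff and 67.0 and 40.7 CPM at Day4 in Direct RNA, and 2.11 and 0.958 against 8.34 and 15.9 CPM in cDNA. Its log2 fold change of 2.05 ± 0.79 and 2.34 ± 1.07 was not called by DESeq2 (adjusted p = 0.0749 and 0.164) but was by edgeR (2.23 and 2.82, adjusted p = 0.00075 and 0.00236). Pfkfb2, a heart-type isozyme, and Pfkfb4, known from testis, stayed at or below 16.9 CPM in every library, and in Direct RNA both had a mean below 5 reads.

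**Figure D3:**
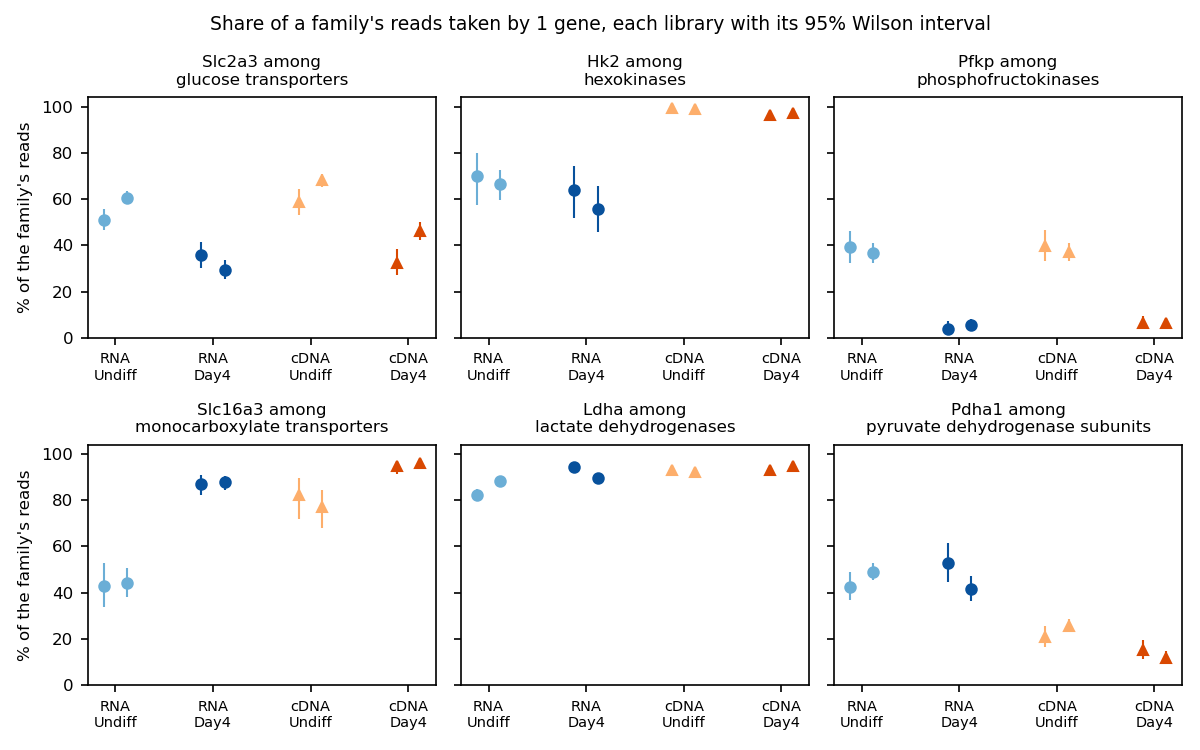
Percentage of a gene family's reads taken by 1 gene in each library (y axis, linear from 0), with its 95% Wilson interval, for 6 families over the 4 groups of 2 libraries. Pfkp falls from between 36.5% and 39.7% in Undiff to between 3.63% and 6.52% at Day4, and Slc16a3 rises to at least 87.1%, whereas Ldha stays at 82.4% or more in all 8 libraries.

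The triose stage held the rise of Tpi1, triosephosphate isomerase, which interconverts the products of aldolase. Tpi1 lies at chr6:124810586-124814296 on the minus strand. A processed pseudogene with 94.2% identity to part of its coding sequence is annotated, and an exon of Spsb2 overlaps Tpi1 on the opposite strand. The Direct RNA libraries of Tpi1 had 628 and 789 CPM in Undiff and 1852 and 2310 CPM at Day4. In cDNA it had 1000.4 and 872 CPM in Undiff and 3453 and 2946 CPM at Day4. Day4 lay above Undiff without overlap, with a log2 fold change of 1.43 ± 0.27 (adjusted p = 7.53e-06) in Direct RNA and of 1.43 ± 0.37 (adjusted p = 0.00234) in cDNA. The call was lost without Direct RNA Undiff replicate 1 (1.14, adjusted p = 0.116) and without cDNA Undiff replicate 2 or Day4 replicate 1 (1.24 for each, adjusted p = 0.151 and 0.155). Aldoa, the aldolase next to it in the pathway, had 2098 and 2812 against 3263 and 3272 CPM in Direct RNA and 1644 and 2058 against 3302 and 2712 CPM in cDNA. Its log2 fold change of 0.30 ± 0.26 and 0.39 ± 0.37 did not pass the test, with a 95% interval from -0.21 to 0.81 and from -0.34 to 1.13. Aldoc, the brain-type aldolase, had 48.8 and 34.2 against 130.5 and 94.9 CPM in Direct RNA. Its change of 1.31 ± 0.54 and 1.38 ± 0.57 passed in edgeR (1.35 and 1.48, adjusted p = 0.00528 and 0.00629) and not in DESeq2 (adjusted p = 0.109 and 0.102). DESeq2 called it on both platforms when genes needed at least 10 reads in every library (1.32 and 1.43, adjusted p = 0.0224 and 0.0220). It took between 1.15% and 4.58% of the aldolase reads.

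The next 4 enzymes of the chain, which are abundant in most cells, had few or no reads under their symbols. Gapdh, glyceraldehyde-3-phosphate dehydrogenase, had 10 and 23 reads in Direct RNA Undiff, 5 and 19 at Day4, 36 and 90 in cDNA Undiff and 32 and 100 at Day4. Pgk1, phosphoglycerate kinase, had between 3 and 25 reads per library, and Pgam1, phosphoglycerate mutase, between 16 and 95. Eno1, alpha-enolase, had 0 reads in all 8 libraries, which allows a level of up to 1.44 CPM in the deepest. All 4 genes have near-identical copies in GENCODE vM21, here of at least 90% identity over at least 50% of the coding sequence. Gapdh has 38 of them, 35 being pseudogenes, with up to 100% identity. Pgk1 has 2 and Pgam1 has 1, each with 100% identity, and Eno1 has 2, with up to 99.6%. Its protein-coding copy Eno1b, with 99.4% identity, held between 564 and 5199 reads per library, where Eno1 had none. Eno1b had 1986 and 2678 CPM in Direct RNA Undiff and 1990 and 2173 CPM at Day4, and 1899.5 and 2489 against 3176 and 2125 CPM in cDNA. The states overlapped, and its log2 fold change was -0.27 ± 0.26 and -0.02 ± 0.40 (adjusted p = 0.697 and 0.988). The counts of these 4 members are therefore uncertain. Reads set aside for low mapping quality were between 20.4% and 28% of the aligned reads, and how many of them came from these genes was not tested.

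Copies were not found in all genes of the pathway, and did not go with few reads in all. Aldoa has 6 copies, at most 93.7% identical, and held between 731 and 5633 reads. Pkm, pyruvate kinase, has 1 of 98.4% and held between 902 and 5739 reads. No member of the Pfk, Hk, Slc2a, Slc16a and Pdk families except Pfkfb2, which shares its sequence with the overlapping gene Gm29427, had a copy at this limit. Of the remaining enolases, Eno3, the muscle-type isozyme, had 37.9 and 36.4 CPM in cDNA Undiff and 108 and 117 CPM at Day4. The change of 1.25 ± 0.47 was not called by DESeq2 (adjusted p = 0.0611) and was by edgeR (1.31, adjusted p = 0.0171) and by DESeq2 with at least 10 reads in every library (1.36, adjusted p = 0.00722). In Direct RNA the change was 0.61 ± 0.67. Eno2, the neuron-type isozyme, stayed at or below 17.6 CPM. Bpgm, which makes 2,3-bisphosphoglycerate in red cells, lay between 17.6 and 34.7 CPM and was not called between states.

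At the end of the pathway, Pkm and Ldha were not called between states. Pkm had 3105 and 3791 CPM in Direct RNA Undiff and 3182 and 3429 CPM at Day4. Its cDNA levels were 2354 and 2748 against 3310 and 2433 CPM. The states overlapped on both platforms, with a log2 fold change of -0.17 ± 0.25 and -0.13 ± 0.38. In CPM, which are scaled otherwise, the cDNA mean of Pkm moved the other way, from 2551 to 2871. Its 95% interval without shrinkage ran from -0.65 to 0.32 and, for cDNA, from -0.89 to 0.63, which excludes a change of 1 in either direction. Ldha, the lactate dehydrogenase subunit that favours lactate formation, had 1848 and 2602 CPM in Undiff and 3041 and 2851 CPM at Day4 in Direct RNA. In cDNA it had 4674 and 4488 against 5701 and 6805 CPM. Both Day4 libraries lay above both Undiff libraries in CPM on each platform, and the fitted change of 0.29 ± 0.27 and 0.11 ± 0.35 did not pass the test, with an interval from -0.23 to 0.81 and from -0.58 to 0.81. Ldhb, the heart-type subunit, took between 5.39% and 17.6% of the lactate dehydrogenase reads, and its log2 fold change of -0.59 ± 0.37 and -0.19 ± 0.38 was not called. It had 396 and 350 against 180 and 336 CPM in Direct RNA, and 354 and 383 against 413 and 388 CPM in cDNA, so that by CPM Day4 lay below Undiff on one platform and above it on the other.

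Slc16a3 had the largest rise among the members called. It encodes MCT4, a lactate exporter typical of glycolytic tissue, and lies at chr11:120948480-120960868 on the plus strand. In Direct RNA it had 123 and 113 CPM in Undiff and 688 and 531 CPM at Day4. In cDNA it had 59.0 and 35.4 CPM in Undiff and 156 and 201 CPM at Day4. Both Day4 libraries exceeded both Undiff libraries on each platform. The log2 fold change was 2.22 ± 0.33 (adjusted p = 2.91e-09) in Direct RNA, which held without each library in turn (2.08 to 2.37). In cDNA it was 1.55 ± 0.47 (adjusted p = 0.0116), which was lost without Undiff replicate 2 (1.13, adjusted p = 0.395), Day4 replicate 1 (1.63, adjusted p = 0.164) or Day4 replicate 2 (1.47, adjusted p = 0.33). Slc16a1, the more widespread transporter MCT1, had 164 and 143 CPM in Undiff and 102 and 74.6 CPM at Day4 in Direct RNA, and 12.6 and 10.5 against 8.34 and 8.18 CPM in cDNA. Its change of -0.90 ± 0.45 and -0.75 ± 0.82 was not called (adjusted p = 0.222 and 0.766). Of the reads of both transporters in Direct RNA, Slc16a3 took 43.0% and 44.2% in Undiff and 87.1% and 87.7% at Day4. In cDNA its share was 82.4% and 77.1% in Undiff and 94.9% and 96.1% at Day4. The share rose without overlap on both platforms, although the platforms differed in its level.

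The pyruvate dehydrogenase complex had 2 subunit genes lower at Day4, each called on 1 platform. Pdha1, the E1 alpha subunit, which carries the regulatory phosphorylation sites, lies at chrX:160122209-160138413 on the minus strand. It had 63.2 and 123 CPM in cDNA Undiff and 31.9 and 34.7 CPM at Day4. In Direct RNA it had 298 and 419 CPM in Undiff and 250.5 and 174 CPM at Day4. The states did not overlap on either platform. The log2 fold change was -1.75 ± 0.50 (adjusted p = 0.00659) in cDNA and -0.89 ± 0.36 (adjusted p = 0.104) in Direct RNA. The cDNA call was lost without Undiff replicate 2 (-1.28, adjusted p = 0.468), Day4 replicate 1 (-1.68, adjusted p = 0.169) or Day4 replicate 2 (-1.63, adjusted p = 0.261). Pdhb, the E1 beta subunit, had 307 and 313 CPM in Direct RNA Undiff and 138 and 153 CPM at Day4. Its log2 fold change was -1.17 ± 0.36 (adjusted p = 0.0144) in Direct RNA, and the call was lost without any one of the 4 libraries (-1.29 to -1.02, adjusted p = 0.188 to 0.568). It was also lost with the replicate number as a block (-1.17, adjusted p = 0.0839) and under the filter of at least 10 reads in every library (-0.99, adjusted p = 0.0268), where the change was below 1 in size. In cDNA it had 226 and 317 against 158 and 218 CPM, and its change of -0.85 ± 0.39 was not called (adjusted p = 0.176). Dlat, the E2 core subunit, had a log2 fold change of -0.42 ± 0.48 and -0.13 ± 0.61 and was not called. Processed pseudogenes with 90.1% identity to Pdha1 and 97.0% identity to Pdhb are annotated, and an exon of Map3k15 overlaps Pdha1 on the opposite strand.

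The pyruvate dehydrogenase kinases switch the complex off. None of the 3 genes was called by DESeq2, and their shares of the kinase reads are given with no test. Pdk1, a known hypoxia-responsive kinase, took 68.2% and 64.0% in the Direct RNA Undiff libraries and 33.9% and 49.7% at Day4, and 61.5% and 66.7% against 40.9% and 39.5% in cDNA. In Direct RNA the 95% Wilson interval of Undiff replicate 2 (56.7 to 70.7) met that of Day4 replicate 2 (42.5 to 56.9). Pdk2, a widely expressed kinase, took at most 12.3% in Undiff and at least 13.8% at Day4, with intervals that met. Pdk3 took 27.3% and 33.1% in Undiff and 49.2% and 36.5% at Day4 in Direct RNA, and 26.2% and 27.3% against 40.9% and 43.1% in cDNA, with intervals that met on both platforms. It had 17.9 and 12.9 CPM in cDNA Undiff and 42.5 and 40.4 CPM at Day4, a log2 fold change of 1.08 ± 0.61 (adjusted p = 0.319). In Direct RNA, edgeR called Pdk2 higher (2.06, adjusted p = 0.0067), from 11.5 and 5.51 CPM in Undiff to 35.3 and 33.9 CPM at Day4, where DESeq2 gave 1.79 ± 0.90. Galk1, galactokinase, which brings galactose into the pathway, had between 252 and 376 CPM in Direct RNA and its change of 0.42 ± 0.32 and 0.44 ± 0.41 was not called.

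The platforms were then compared over all 8 libraries with state in the model. Of 31 members with enough reads, 8 were called higher in cDNA, where 24.7% of all 10426 genes were, and 5 lower, where 26.6% were. Their median log2 difference was -0.02, the same as over all genes. Hk2 had the largest difference in either direction. It stood between 70.5 and 155 CPM in the 4 Direct RNA libraries and between 409 and 1001 CPM in the 4 cDNA libraries, and the log2 difference of cDNA over Direct RNA was 3.32 ± 0.28 (adjusted p = 4.2e-30). Hk1 went the opposite way (-1.80 ± 0.37, adjusted p = 7.83e-06), so that Hk2 took between 55.9% and 69.8% of the Direct RNA reads of both hexokinases, and 96.6% to 99.5% of the cDNA reads. Slc16a1 had the largest difference in the other direction, with -2.79 ± 0.31 (adjusted p = 2.51e-18), from between 74.6 and 164 CPM in Direct RNA to between 8.18 and 12.6 CPM in cDNA. Ldha was higher in cDNA by 1.80 ± 0.18 (adjusted p = 2.9e-22), and its lowest cDNA library lay above its highest Direct RNA library.

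The other members called higher in cDNA were Pfkfb2, Tpi1, Gapdh, Bpgm, Eno3 and Ldhb, with log2 differences from 1.04 to 2.16. Slc2a1, Pfkfb3 and Pdha1 were lower, with differences from -1.57 to -1.22. The main protein-coding transcript of the 8 genes higher in cDNA had a median length of 1686 bases, and that of the 5 lower genes one of 4278 bases. Hk2, of 5513 bases, and Pfkfb2 were long and higher in cDNA. Transcript length moved with the difference in most of these genes and its part was not tested. Counting by strand was stated for Direct RNA only, and Hk1, Slc2a1, Pfkfb2, Tpi1, Gapdh and Pdha1 have an exon that overlaps one of a gene on the opposite strand, so that reads of such partners cannot be told apart in cDNA. The calls of Bpgm, Ldhb and Pfkfb3 were lost without single libraries. Without Direct RNA Day4 replicate 1, Bpgm gave 0.996, Ldhb 0.84 and Pfkfb3 -1.39 (adjusted p = 0.0698). Without Direct RNA Undiff replicate 2 or Day4 replicate 2, Bpgm gave 0.94 and 1.03 (adjusted p = 0.0849 and 0.059), and without cDNA Day4 replicate 1, Ldhb gave 0.95. Under the filter of at least 10 reads in every library, Tpi1, Eno3 and Ldhb gave 0.86, 0.89 and 0.63 and were not called, whereas Pfkfb2, Gapdh, Bpgm, Hk1 and Pfkfb3 did not pass the filter. Dlat, Pdk1, Pdk3, Slc16a3 and Slc2a3, not called without the filter, were called lower in cDNA under it. Within the Undiff libraries alone Pfkfb2, Gapdh, Bpgm, Eno3, Ldhb, Pfkfb3 and Pdha1 were not called, and within the Day4 libraries alone Pfkfb2, Gapdh, Bpgm, Hk1 and Pfkfb3 were not.

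**Figure D4:**
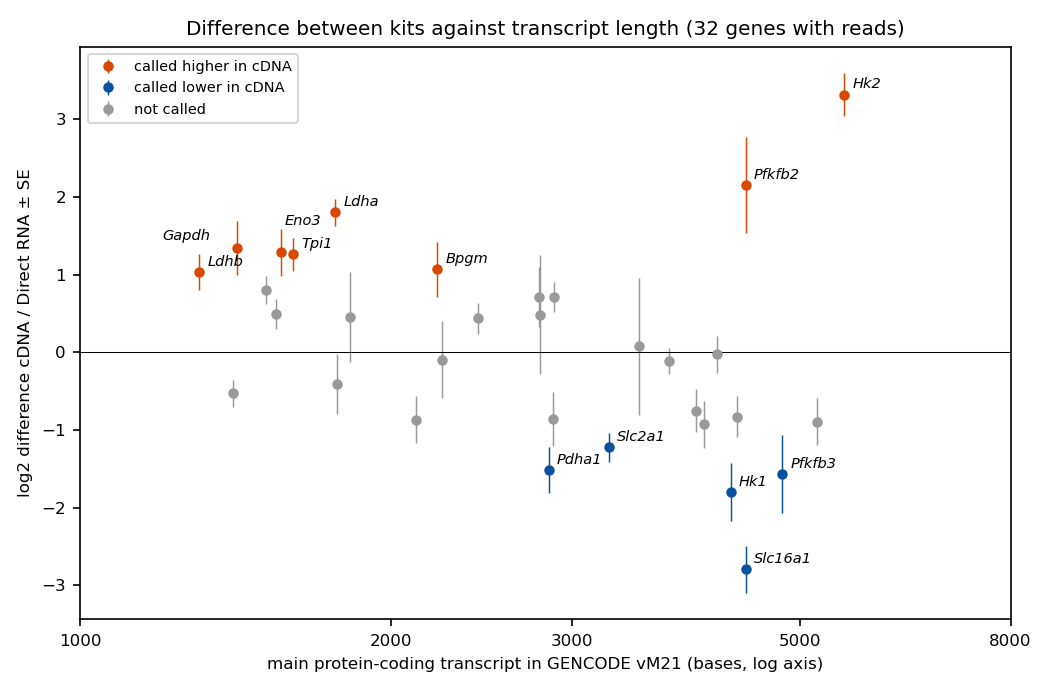
Log2 difference of ONT cDNA over ONT Direct RNA (y axis, with standard errors) against the length of the main protein-coding transcript in bases (x axis, log scale) for the 32 genes with reads. The 5 genes called lower in cDNA lie at 2848 bases or more, whereas the 8 called higher lie between 1304 and 5513 bases with Hk2 highest at 3.32.

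Genes around the pathway were counted from lists of other enzymes and transporters. These counts stand beside 9.54% of all genes called higher and 7.67% lower in Direct RNA, 8.69% and 9.24% in cDNA, and 6.19% and 5.18% on both platforms. Among the other glycolytic and gluconeogenic enzymes 9 had enough reads in Direct RNA and 10 in cDNA. Of them, Pgm2, a phosphoglucomutase, was higher at Day4 on both platforms (2.39 ± 0.44 and 2.36 ± 0.49, adjusted p = 3.56e-06 and 4.4e-05). Tigar, a phosphatase that lowers fructose 2,6-bisphosphate, was lower on both (-3.50 ± 0.68 and -3.35 ± 0.58, adjusted p = 1.33e-05 and 5.04e-07), from between 63.2 and 115 CPM in Undiff to between 5.31 and 10.6 CPM at Day4. Pgam2, the muscle-type mutase, was also called lower in cDNA (-4.15 ± 1.00, adjusted p = 0.000789). Of 9 pentose phosphate genes, the branch that leaves glycolysis at glucose 6-phosphate, none was higher on either platform and 2 were lower on both, Taldo1, a transaldolase, and Prps1, which makes the ribose donor of nucleotides (Taldo1 -1.27 ± 0.34 and -1.52 ± 0.37, Prps1 -2.23 ± 0.40 and -2.22 ± 0.46). Of 19 tricarboxylic acid cycle genes 1 was higher on both platforms, Idh2 (1.52 ± 0.38 and 1.69 ± 0.48), and 1 lower on both, Idh3a (-1.68 ± 0.42 and -1.55 ± 0.39). Among other pyruvate and lactate genes 0 of 7 and 0 of 10 were higher and 1 was lower on each platform, Me2 in Direct RNA and Ldhd in cDNA. Of the other genes of sugar entry, 0 of 11 were called in Direct RNA and Khk alone, higher, of 12 in cDNA. In each of these lists most tested genes were not called, as among the members.

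Hypoxia-response genes outside glycolysis share a regulator with many members. Of 26 with enough reads, 10 were higher and 1, Epas1, lower in Direct RNA, where 9.54% and 7.67% of all genes were. In cDNA 8 were higher and 0 lower, where 8.69% and 9.24% of all genes were. Their median log2 fold change was 1.16 and 0.69, beside -0.04 and 0.11 among the members and 0.03 and 0.00 over all genes tested. The difference of this list from the members was not tested. Vegfa, an angiogenic growth factor, had 5.74 and 11.0 CPM in Direct RNA Undiff and 300 and 133 CPM at Day4, a change of 4.2 ± 0.63 (adjusted p = 3.02e-09). P4ha1, a subunit of the collagen prolyl hydroxylase, had 45.9 and 20.9 against 533 and 382 CPM in Direct RNA and 13.7 and 13.9 against 152 and 280 CPM in cDNA, a change of 3.69 ± 0.44 and 3.53 ± 0.50. Egln1, the oxygen sensor that marks hypoxia-inducible factor for decay, had 57.4 and 41.9 against 663 and 355 CPM in Direct RNA (3.20 ± 0.42, adjusted p = 3.8e-12). The genes Adm, Ndrg1, P4ha2, Ddit4 and Pgf were also higher on both platforms. Markers of mesenchyme, endoderm and erythroid cells rose at Day4 together with this list, and their part in it was not tested.

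**Figure D5:**
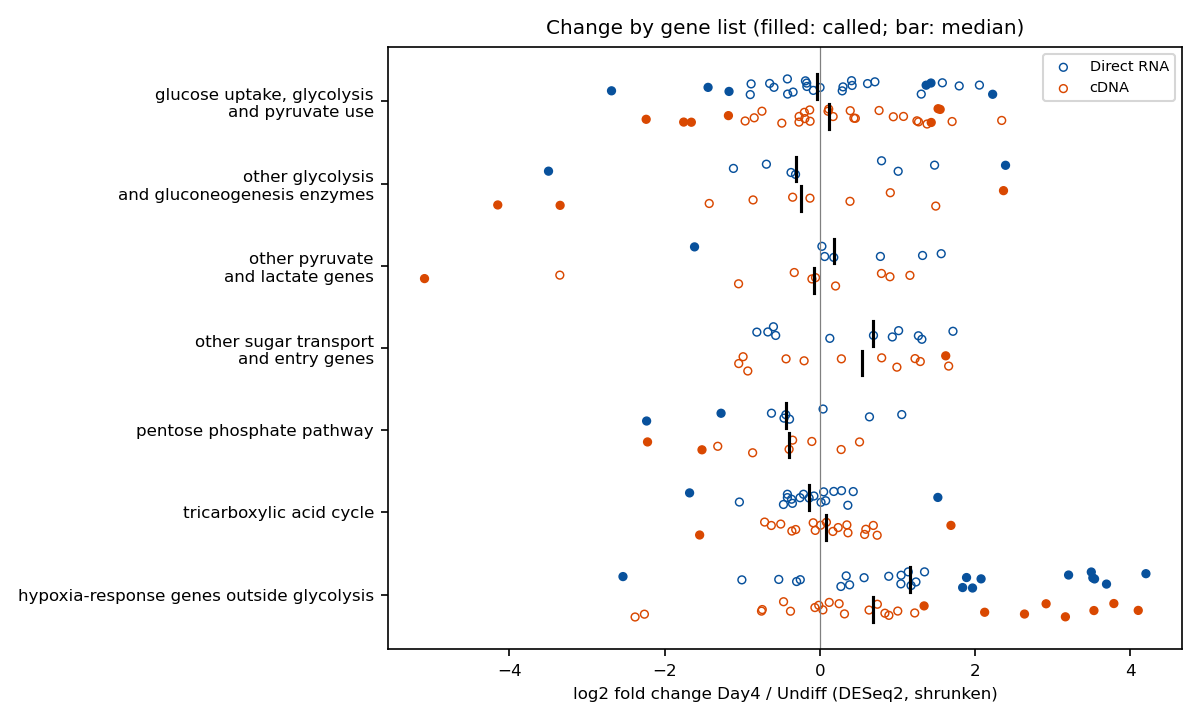
Log2 fold change of Day4 over Undiff (x axis) of each gene averaging 5 or more reads in 7 gene lists, for ONT Direct RNA and ONT cDNA, with filled points for called genes and a bar for the median. The members centre near 0, with medians of -0.04 and 0.11, and the hypoxia-response genes at 1.16 and 0.69.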

How the data were processed

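Gene-level counts of 8 ONT libraries were analysed, for 2 states and 2 platforms with 2 replicates each. The authors deposited a table of raw read counts by gene symbol for every library, from minimap2 alignments to mm10 without secondary hits, counted by htseq-count on the iGenomes annotation of UCSC. Direct RNA was counted by strand, and for cDNA the use of strand is not given in the sources used here. Between 31.8% and 48.2% of the aligned reads were given to no gene and stayed out of library sizes and tests.

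The 33 members and all lists were chosen with earlier results of these data known. States were compared within each platform, and platforms in a model of platform and state on all 8 libraries, by the Wald test of DESeq2 1.42.0 in R 4.3.3 over all genes with a read, with shrunken fold changes, the Cook's cutoff and independent filtering off and Benjamini-Hochberg adjustment. A different change between platforms was tested as an interaction without shrinkage. The quasi-likelihood test of edgeR 4.0.16 was the alternative. Other alternatives were TMM factors, a filter of at least 10 reads in every library, no shrinkage, filtering on, a replicate block, all libraries in one fit and leaving out each library. The fits were run on simulated counts with known changes as a check of the code. The spread of these counts was set and not estimated from the libraries, and genes with few reads were not changed. Both platforms used RNA of the same cultures. Differences between replicates correlated across 1395 genes by 0.12 between platforms in Undiff and by -0.42 at Day4.

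Every member is reported, and those called between states carry the value of every library. From each other pathway list the genes called on both platforms were named, and marker lists are given by sums and counts. Wilson intervals and floors of 3 reads cover counting error only. Coordinates and main transcripts come from GENCODE vM21 on GRCm38, and copies from minimap2 2.31 matches of coding sequences to its transcripts. Promoters come from RefSeq on GRCm38.p6.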

Additional observations from a re-analysis of the deposited data

How the results depend on the processing

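Of the counts of members, those higher at Day4 depended on the test. By edgeR 7 were higher on each platform, where 18.7% of all genes were in Direct RNA and 17.0% in cDNA. Under the filter of at least 10 reads in every library 5 were on each, where 8.21% and 9.38% of all genes were. The filter gave 1 lower in Direct RNA (7.58% of all genes), since Pfkp, with 7 reads in Day4 replicate 1, was not tested, and Pdhb stood at -0.99 (adjusted p = 0.0268). In cDNA it gave 3 lower (9.1%), without Hk2. It left 21 members in the comparison of platforms and moved their log2 differences by a median of -0.40, with 2 then higher (23.2% of all genes) and 8 lower (23.7%) in cDNA, and moved the changes between states by a median of 0.12 and 0.17. Within Undiff libraries alone 3 members were higher (17.5% of all genes) and 3 lower (12%) in cDNA, and 6 were higher (18.2%) and 3 lower (13.8%) within Day4 libraries alone. Leaving out single libraries gave 1 to 3 members higher (2.84% to 4.57% of all genes) and 1 to 3 lower (1.42% to 4.02%) in Direct RNA, and 0 to 3 higher (3.37% to 5.28%) and 0 to 4 lower (3.93% to 4.38%) in cDNA, with the named calls given beside each gene. Hk2 in Direct RNA ran from -0.94 to 0.063 over these settings, reversing without Day4 replicate 2. With single libraries left out, the highest counts of lower members on both platforms include members not called with all libraries, which are not named here. The share of all promoters with a match was 38.6% in the 250 bases before the start alone, and 77.1% among members. TMM factors moved the median of all genes by 0.12 in the interaction and by at most 0.07 elsewhere, and the cause of the remaining changes was not tested.

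States on a platform share only replicate numbers, with correlations of replicate differences of 0.21 (Direct RNA) and 0.50 (cDNA). With the replicate block 3 members were higher (4.72% of all genes) and 2 lower (4.02%) in Direct RNA, where the call of Pdhb was lost (-1.17, adjusted p = 0.0839), and 3 higher (5.81%) and 4 lower (7.57%) in cDNA. With a block for the culture 8 members were higher (23.5% of all genes) and 5 lower (25.0%) in cDNA than in Direct RNA, and the same counts (23.6% and 25.1%) came with the Day4 numbers crossed, a pairing chosen after seeing the data. Replicate differences correlated negatively between platforms at Day4 (-0.42), so the Day4 numbers may not name the same culture on both, which was not tested.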
